A study of Homo sapiens with 8 samples.

Results

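Histone genes were followed through SLAM-Seq data of U-2OS cells in which CGGBP1, a protein that binds CGG triplet repeats, was depleted. Members were chosen by symbol: every gene whose symbol began with HIST1H, HIST2H, HIST3H, HIST4H, H2AF or H3F3, or was H1F0 or H1FX. This rule found 59 of the 18388 genes measured. Of these, 46 carried HIST symbols and are called clustered here (3 for H1, 12 for H2A, 12 for H2B, 8 for H3 and 11 for H4), and the other 13 are called variant (2 for H1, 8 for H2A and 3 for H3).

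The cells were U-2OS Tet-ON, an osteosarcoma line that expresses a tetracycline-regulated transactivator, and all libraries came from this line. Cells received siControl or siCGGBP1, a pool of siRNAs, at 50 nM for 72 h, and 75 µM 4-thiouridine (4sU) for the last 60 min, with 3 libraries per group. In SLAM-Seq the 4sU built into newly synthesized RNA is alkylated and read as T-to-C conversions, so total and newly synthesized RNA are read from the same library. A single siControl library without 4sU (0 µM) and a single siControl library with 200 µM 4sU stood beside them and entered no test. The titles of all libraries also carry DMSO, which no label explains. The study counts its replicates as biological, but the labels name no separate cultures for the 3 libraries of a group. In bulk RNA, fewer cells of a kind and less RNA per cell cannot be told apart.

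Histones package DNA: H2A, H2B, H3 and H4 form the nucleosome core and H1 binds the linker between nucleosomes. Genes for the replication-dependent histones lie in clusters and are expressed as DNA is copied in S phase, and their mRNAs end in a conserved stem-loop in place of a poly(A) tail. Variant histones such as H2A.Z, H2A.X, macroH2A and H3.3 are mostly made from polyadenylated mRNAs throughout the cell cycle and mark promoters, sites of DNA damage or silent chromatin. The libraries were primed at poly(A), so they read the clustered genes only through RNA ends at which an oligo(dT) primer could anneal; which ends these were was not tested.

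The stem-loop is shown because it is the element that sets the clustered genes apart. It was searched in the 150 bases after the stop codon, on the coding strand of GRCh38 with the GENCODE 44 annotation, as 16 bases that start with GG, end with CC, pair over 6 bases (G-T pairs allowed) and enclose a loop of 4 bases starting with T. Capitals mark these 16 bases, with 5 bases on each side in lower case, for the called member and for clustered members whose values are given below. Positions are chr11:119094893-119094918 (minus strand) for H2AFX, chr6:26104312-26104337 (plus) for HIST1H4C, chr6:26055739-26055764 (minus) for HIST1H1C, chr6:26124664-26124689 (plus) for HIST1H2AC, chr1:149887386-149887411 (plus) for HIST2H2AC and chr1:149886183-149886208 (minus) for HIST2H2BE.
H2AFX: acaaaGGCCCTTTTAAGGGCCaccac
HIST1H4C: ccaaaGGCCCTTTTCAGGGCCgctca
HIST1H1C: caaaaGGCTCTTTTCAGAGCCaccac
HIST1H2AC: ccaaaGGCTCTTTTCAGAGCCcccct
HIST2H2AC: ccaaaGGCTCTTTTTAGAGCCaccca
HIST2H2BE: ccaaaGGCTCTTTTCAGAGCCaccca

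Such a hairpin was present in 42 of the 43 clustered genes found in the annotation, and in 153 of 19924 protein-coding genes (0.768%). The clustered gene without it was the second of the 2 genes that share the symbol HIST1H3D. The 42 hairpins had 8 distinct sequences and began 23 to 63 bases after the stop codon, and the form of HIST1H1C, HIST1H2AC and HIST2H2BE was found in 21 genes. Of the 13 variant genes only H2AFX carried it. The poly(A) signal AATAAA was present in the annotated 3′ UTR of 2 clustered genes, among them HIST2H2BE, and of 10 of the 13 variant genes. It was present in 80% of all protein-coding genes and absent from H2AFX. Only the canonical transcript of each gene was searched, with a median 3′ UTR of 57 bases over tested clustered and 597 over tested variant genes. Longer transcripts and other signals were not searched, so a gene without AATAAA here may still have a poly(A) end. Clustered genes lay mainly on chromosome 6 (34), with 8 on chromosome 1 and 1 on chromosome 12, and 42 of the 43 had a single exon. H2AFX (chr11:119093874-119095465) had a single exon as well.

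The 6 compared libraries held 10127519 to 14221516 reads, and the libraries with 0 and 200 µM 4sU held 19011714 and 11341561. CGGBP1 itself averaged 1075 normalized reads (SD 177) over the 3 siControl libraries and 230.4 (SD 124) over the 3 siCGGBP1 libraries, and its log2 fold change was -2.22 (SE 0.39, edgeR adjusted p = 0.0138). That call was lost without siControl replicate 1 (adjusted p = 0.0632) or siCGGBP1 replicate 1 (adjusted p = 0.0851). Of 6 tested mesenchymal and bone genes, chosen as markers of the line, COL1A1 and SPARC were called higher in siCGGBP1 (log2 fold changes of 1.31 and 1.27, edgeR adjusted p = 0.00353 and 0.00634, also without any 1 library), and their part in the histone values was not tested. VIM was read in every library (2347 to 3252 CPM, reads scaled to a library of 1000000), ALPL had 0 to 21 reads, and of the genes of other cell types CDH1, CD3E and PECAM1 had no read, PTPRC had 0 to 8 and EPCAM 46 to 184.5. The replicate 3 libraries stood apart in the labelling data: the share of a gene's RNA that was new was estimated as 0 for 57.4% of tested genes in siControl replicate 3 and 59.8% in siCGGBP1 replicate 3, against 22.5% to 31.9% in the other 4.

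Most clustered genes were barely read. A gene was tested where at least 3 of the 6 libraries held at least 100 reads, which 10138 genes did. This kept 13 of the 46 clustered genes (1 for H1, 4 for H2A, 4 for H2B, none for H3 and 4 for H4) and 10 of the 13 variant genes. The 36 members left out comprised 33 clustered and 3 variant genes. HIST1H2BG, the second HIST1H3D gene and HIST1H4J had the most reads among these, 597.5, 520.0 and 476.5 over the 6 libraries. HIST1H4A, HIST1H3B, HIST2H2BF and HIST1H4L had no read at all, and the variants left out were H3F3C, H2AFB1 and H2AFB3. Among the clustered genes in the annotation, 7 of the 11 tested genes spanned more than 1000 bases and 6 had more than 1 annotated transcript, against 8 and 8 of the 32 that were not tested. HIST2H2BE had an annotated 3′ UTR of 1801 bases, whereas the median was 57 bases over the tested clustered genes and 597 bases over the tested variant genes.

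HIST1H4C, an H4 gene, dominated the clustered class. It supplied 60.7%, 60.6% and 55.6% of all clustered reads in siControl replicates 1, 2 and 3, and 51.3%, 46.6% and 50.1% in siCGGBP1. All clustered genes together made up 1837, 1644 and 1282 CPM in siControl and 1269, 1457 and 1096 in siCGGBP1. The sums were lower on average after knockdown, but siControl replicate 3 lay among the siCGGBP1 libraries. The variant genes together made up 5134, 5328 and 6064 CPM in siControl and 4694, 4723 and 5271 in siCGGBP1, and here siCGGBP1 replicate 3 overlapped siControl.

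A single histone gene, H2AFX, was called in total RNA. A call needed both an adjusted p below 0.05 (edgeR quasi-likelihood test, Benjamini-Hochberg, taken over every tested gene) and a log2 fold change beyond 1 in either direction. This is 1 of 23 tested members, where 143 of all 10138 tested genes were called (1.41%; 0.957% lower and 0.454% higher). At an unadjusted p under 0.05, 8 members stood out (6 lower, 2 higher), against 16.4% of all tested genes (8.32% lower, 8.11% higher). In 10 of the 23 members the 3 siCGGBP1 libraries did not overlap the 3 siControl libraries (7 lower and 3 higher), against 24.2% of all tested genes. HIST2H2AC passed the read filter only through the siControl libraries, where it was high, and without it 9 of 22 did not overlap and 7 had an unadjusted p under 0.05. The median log2 fold change was 0.02 over the 13 clustered and -0.09 over the 10 variant genes, and 0.00 over all tested genes, with members on both sides of 0. Leaving out 1 library at a time moved the clustered median between -0.12 and 0.18 and the variant median between -0.21 and 0.070, so neither had a stable sign.

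**Figure D1:**
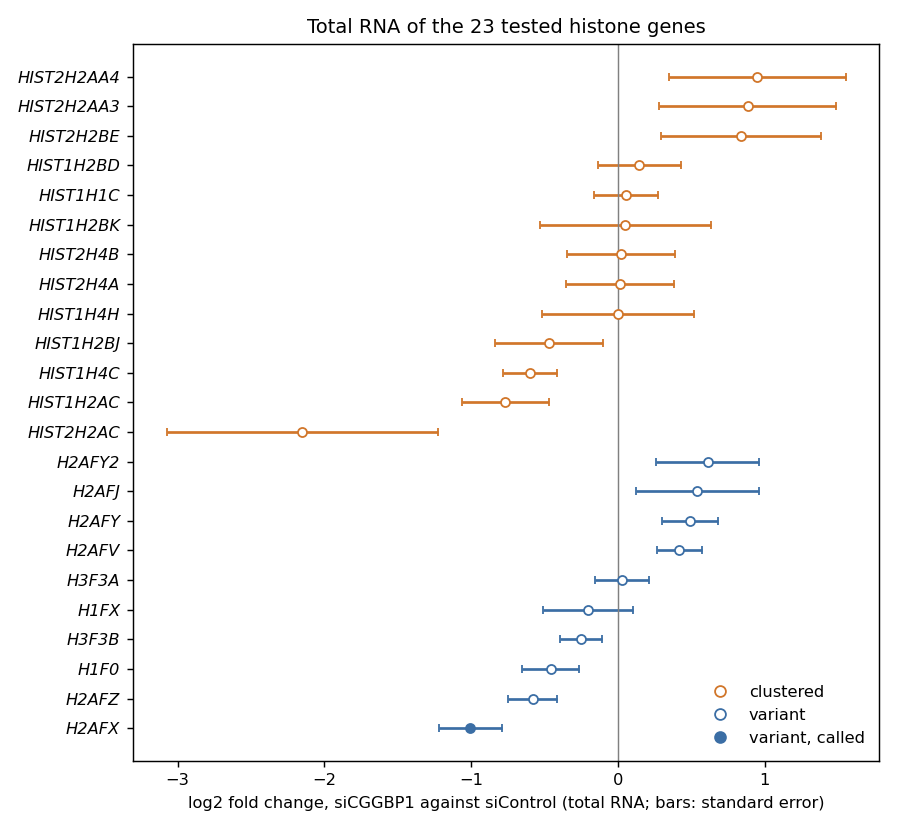
Log2 fold change in total RNA (siCGGBP1 against siControl, 3 libraries each) of the 23 tested histone genes, with the standard error as bars; clustered genes in orange, variant genes in blue, filled where called. Only H2AFX is filled, at -1.01, and HIST2H2AC has the lowest value and the widest bar.

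H2AFX encodes H2A.X, the variant that is phosphorylated at DNA breaks. It had 2240, 3022 and 2193 normalized reads in siControl and 1109, 1317 and 1286 in siCGGBP1. Every siCGGBP1 library was below every siControl library, and the means were 2485 ± 465 and 1237 ± 112 (SD, n = 3 each). H2AFX fell by 1.01 on the log2 scale (SE 0.21, edgeR adjusted p = 0.0336), a 2.01-fold difference. H2AFX also carries the stem-loop, which began 50 bases after the stop codon in an annotated 3′ UTR of 1089 bases. The median 3′ UTR over the tested clustered genes was 57 bases. Like all genes in these libraries, H2AFX was read only through RNA ends at which an oligo(dT) primer could anneal. Which of its ends these were was not tested. The siControl libraries at 0 and 200 µM 4sU held 218.7 and 222.6 H2AFX CPM, within the 181.9 to 261.2 of siControl at 75 µM, while siCGGBP1 held 95.2 to 113.1. The call rested on all 6 libraries: the edgeR adjusted p rose to 0.0781 without siControl replicate 1, 0.143 without replicate 2 and 0.0649 without replicate 3, and to 0.155, 0.0940 and 0.0504 without siCGGBP1 replicates 1, 2 and 3, with log2 fold changes of -1.09 to -0.85.

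H2AFZ and H2AFV encode the closely related forms of H2A.Z, which sits at the nucleosomes flanking promoters. H2AFZ (chr4:99948086-99950355) had 15803.5, 14104.5 and 19894.5 normalized reads in siControl and 9931, 10720.3 and 12634 in siCGGBP1, a log2 fold change of -0.58 (SE 0.17, edgeR adjusted p = 0.103, range 0.0159 to 0.313 over the other settings). H2AFV (chr7:44826791-44848087) had 6866, 7093 and 7276 in siControl and 8922, 9096 and 10359 in siCGGBP1, a log2 fold change of 0.42 (SE 0.15, adjusted p = 0.189). Neither gene passed the test, and they lay on opposite sides of 0 with no overlap between groups. The ratio of H2AFZ to H2AFV reads within each library, which needs no scaling between libraries, was 2.3, 1.99 and 2.73 in siControl and 1.11, 1.18 and 1.22 in siCGGBP1. The ratio was lower in every siCGGBP1 library (two-sided exact permutation test, p = 0.1, the smallest that 3 against 3 can give). This follows from both genes separating the groups in opposite directions, so the p adds no support of its own. The ratio was 1.45 and 1.72 in the siControl libraries at 0 and 200 µM 4sU, between the groups. In those libraries H2AFZ, at 1482 and 1285 CPM, lay with siControl at 75 µM (1219 to 1650), whereas H2AFV, at 1025 and 747.5, lay above it (583.9 to 613.0) and near or above siCGGBP1 (765.9 to 886.2).

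MacroH2A, an H2A with a large added domain found in silent chromatin, is encoded by H2AFY and H2AFY2. H2AFY had 2511, 3033 and 3229 normalized reads in siControl and 3683, 3884 and 4772 in siCGGBP1. All siCGGBP1 libraries were higher, with a log2 fold change of 0.49 (SE 0.19, edgeR adjusted p = 0.216). The siControl libraries at 0 and 200 µM 4sU again lay above siControl at 75 µM (388.9 and 309.0 against 213.6 to 267.8 CPM). On the log2 scale H2AFY2 was at 0.61 and H2AFJ, an H2A gene outside the main clusters, 0.54, and neither passed the test (adjusted p = 0.422 and 0.573), with overlapping groups. Both rested on single libraries: H2AFY2 was at 0.25 without siCGGBP1 replicate 1 and 0.38 without siControl replicate 2, and H2AFJ at 0.29 without siCGGBP1 replicate 2, 0.31 without siControl replicate 3 and 0.83 without siCGGBP1 replicate 3.

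H3F3A and H3F3B encode the same protein, H3.3, which replaces H3 outside S phase. H3F3B was the most read histone gene, at 19987, 20305 and 24917 normalized reads in siControl and 17827, 17193 and 19827 in siCGGBP1. The groups did not overlap, but the difference was small (log2 fold change -0.25, SE 0.14, edgeR adjusted p = 0.423). H3F3A was at 0.03 on that scale (adjusted p = 0.965). At 0 and 200 µM 4sU the siControl libraries held 1592 and 1407 H3F3B CPM, below siControl at 75 µM (1700 to 2067). These values lay within or below those of siCGGBP1 (1476 to 1696). The ratio of H3F3B to H3F3A reads was 4.19, 3.48 and 3.56 in siControl and 3.33, 2.79 and 3.1 in siCGGBP1 (exact permutation p = 0.1), and 3.1 and 3.48 at 0 and 200 µM 4sU, which spans both groups.

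The linker histone variants did not pass the test. H1F0, the H1 of differentiated and slowly dividing cells, had 6053, 5171 and 6427 normalized reads in siControl and 5327, 3671 and 3839 in siCGGBP1. The log2 fold change was -0.46 (SE 0.19, edgeR adjusted p = 0.259), and siCGGBP1 replicate 1 overlapped siControl. At 0 and 200 µM 4sU the siControl libraries held 349.6 and 272.3 CPM, within or below the 315.3 to 457.3 of siCGGBP1 and below the 446.8 to 533.0 of siControl at 75 µM. H1FX was at -0.21 on the same scale (adjusted p = 0.803).

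**Figure D2:**
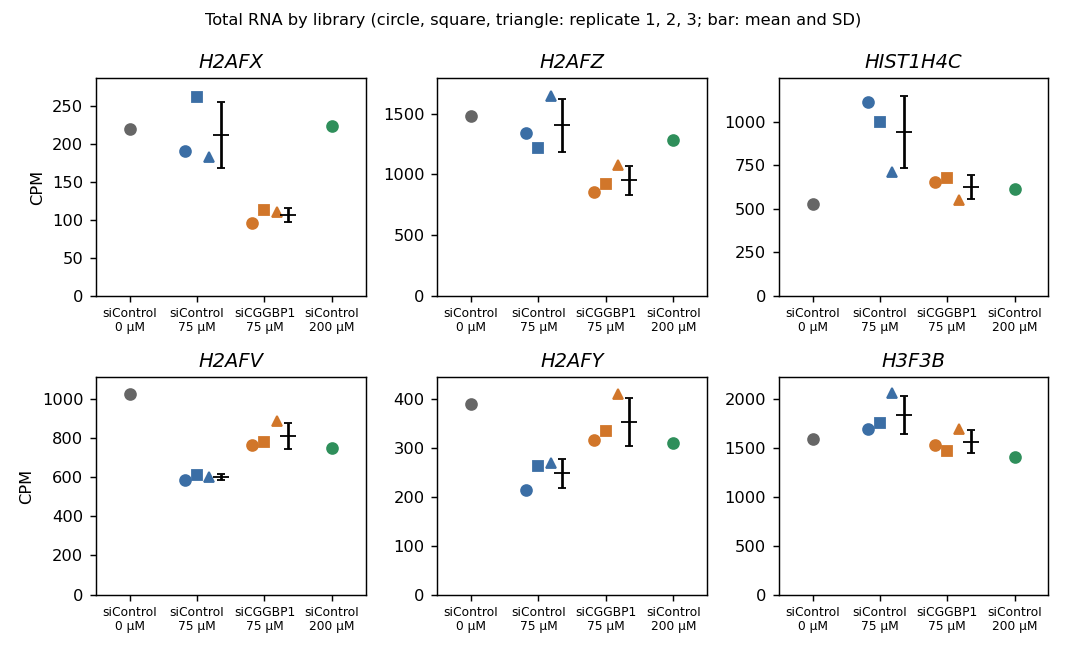
CPM of 6 histone genes in the 8 libraries; symbols mark replicates, bars the mean and SD of 3 libraries, and the libraries at 0 and 200 µM 4sU are single siControl libraries. H2AFX and H2AFZ of the single siControl libraries lie with siControl at 75 µM. In contrast, their HIST1H4C, H2AFV, H2AFY and H3F3B lie within, near or beyond siCGGBP1.

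Among the clustered genes, HIST1H4C (chr6:26103933-26104337) had the most reads, with 13102, 11530 and 8599 normalized reads in siControl and 7585, 7906 and 6423 in siCGGBP1. Every siCGGBP1 library was below every siControl library, the closest being siControl replicate 3. The log2 fold change was -0.60 (SE 0.18, edgeR adjusted p = 0.118, range 0.0197 to 0.344 over the other settings), so it was not called. Relative to the other clustered genes in the same library, its reads stood at 1.54, 1.54 and 1.25 in siControl and 1.05, 0.872 and 1.00 in siCGGBP1 (two-sided exact permutation p = 0.1). The siControl libraries at 0 and 200 µM 4sU stood at 1.09 and 1.15 by this ratio and at 527.7 and 614.4 HIST1H4C CPM, as low as siCGGBP1 (549.4 to 678.8) and below siControl at 75 µM (713.1 to 1114). HIST1H4C was thus lower than in siControl at 75 µM both in siCGGBP1 and in the single siControl libraries at other 4sU doses, and dose cannot be told apart from other differences between those libraries. With DESeq2 the adjusted p of HIST1H4C was 0.0197, with a log2 fold change of -0.61, under the fold threshold.

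**Figure D3:**
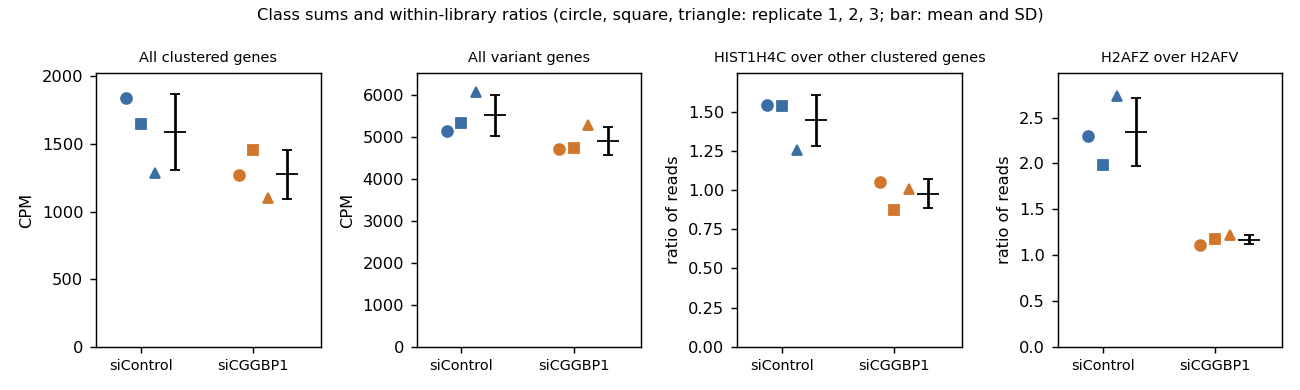
CPM of all clustered and all variant genes, and the ratios HIST1H4C over all other clustered genes and H2AFZ over H2AFV, by library; symbols mark replicates, bars the mean and SD (n = 3). The class sums overlap between groups and both ratios are lower in every siCGGBP1 library.

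The next most read clustered gene, HIST1H1C, encodes a replication-dependent H1. It had 3571, 2998 and 3645 normalized reads in siControl and 3253, 4621 and 2727 in siCGGBP1, and the groups overlapped fully (log2 fold change 0.05, edgeR adjusted p = 0.935). HIST1H2BD, an H2B gene, had 519.3, 478.4 and 451.8 in siControl and 523.4, 537.5 and 543.3 in siCGGBP1. All siCGGBP1 libraries were higher by a narrow margin (log2 fold change 0.15, SE 0.28, adjusted p = 0.858).

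HIST1H2AC, an H2A gene, had 677.8, 616.2 and 564.3 normalized reads in siControl and 314.0, 374.9 and 401.1 in siCGGBP1. The groups were well separated, yet the gene was not called (log2 fold change -0.77, SE 0.30, edgeR adjusted p = 0.214). The siControl libraries at 0 and 200 µM 4sU held 63.8 and 40.6 CPM, above and below the 46.8 to 57.7 of siControl at 75 µM. Both lay above the 27.0 to 34.3 of siCGGBP1. HIST2H2AC, another H2A gene, had 311.1, 182.8 and 142.6 in siControl and 75.9, 64.5 and 3.29 in siCGGBP1 (log2 fold change -2.15, SE 0.92, adjusted p = 0.270). Its siControl libraries also differed by 4sU dose: it had no read at 0 µM and 5.47 CPM at 200 µM, both below siCGGBP1 replicates 1 and 2 (6.55 and 5.56).

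HIST1H2BK had 448.8, 566.4 and 63.3 normalized reads in siControl, where replicate 3 was far below, and 349.7, 421.5 and 345.2 in siCGGBP1 (log2 fold change 0.05, SE 0.58, edgeR adjusted p = 0.978). Without siControl replicate 3 its log2 fold change was -0.45. HIST2H4A and HIST2H4B shared reads of near-identical copies and had log2 fold changes of 0.01 and 0.02, and HIST2H2AA3 and HIST2H2AA4, a second such pair, had 0.88 and 0.95 (adjusted p = 0.514 and 0.475), or 0.46 and 0.52 without siControl replicate 3 and 1.45 and 1.52 without siControl replicate 2. In HIST2H4A the libraries held 379.4, 302.4 and 250.0 normalized reads in siControl and 297.9, 317.3 and 324.7 in siCGGBP1, fully overlapping. All 23 tested members had a fractional read count in a library, as do genes whose reads are shared between sites, so values of single members within a family carry this uncertainty. The remaining tested genes had log2 fold changes of -0.47 (HIST1H2BJ), 0.00 (HIST1H4H) and 0.84 (HIST2H2BE), with adjusted p of 0.576, 1.00 and 0.485. HIST2H2BE had 192.0, 137.8 and 138.6 normalized reads in siControl and 177.1, 166.6 and 493.2 in siCGGBP1, so the last library carried its difference, and without it the log2 fold change was 0.15. HIST1H2BJ was lower in every siCGGBP1 library, by as little as 331.1 against 308.4 normalized reads.

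Exons of 8 of the 21 tested members found in the annotation overlapped exons of another gene, on the opposite strand in 7 and on the same strand in 2. These included H2AFZ, H2AFY, H3F3B and HIST1H2AC but neither H2AFX, HIST1H4C nor H2AFV. The strand setting of the counting is not given in the sources used here, and reads of overlapping genes were not told apart further.

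Labelled RNA of the histone genes was read as T-to-C conversions, as the new-to-total ratio estimated from them and as newly synthesized RNA, the reads multiplied by that ratio. HIST1H4C had the firmest labelling. Its conversions per 100 covered T were 0.565, 0.542 and 0.647 in siControl and 0.729, 0.554 and 0.721 in siCGGBP1, against 0.0100 (22 conversions) without 4sU. All genes together had 0.183 to 0.263 per 100 covered T in the 6 libraries and 0.0638 without 4sU, so HIST1H4C was above the level of all genes in every labelled library and below it without label.

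In most other clustered genes at least 1 labelled library did not exceed the library without 4sU. In 9 of the 22 members that could be compared, all 6 labelled libraries exceeded the library without 4sU: 2 clustered genes (HIST1H4C and HIST2H2BE) and 7 variant genes. HIST2H2AC had no covered T in that library. HIST1H2AC had 0.222 conversions per 100 covered T without 4sU (102 conversions), against 0.251 to 0.434 in siControl and 0 to 0.266 in siCGGBP1. HIST2H4A had 0.304 without 4sU and 0.0250 to 1.26 with it, so its rate at 75 µM lay on both sides of background. With 200 µM 4sU, 12 of the 23 members had a higher rate than without 4sU, and 6 had no conversion at all.

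**Figure D4:**
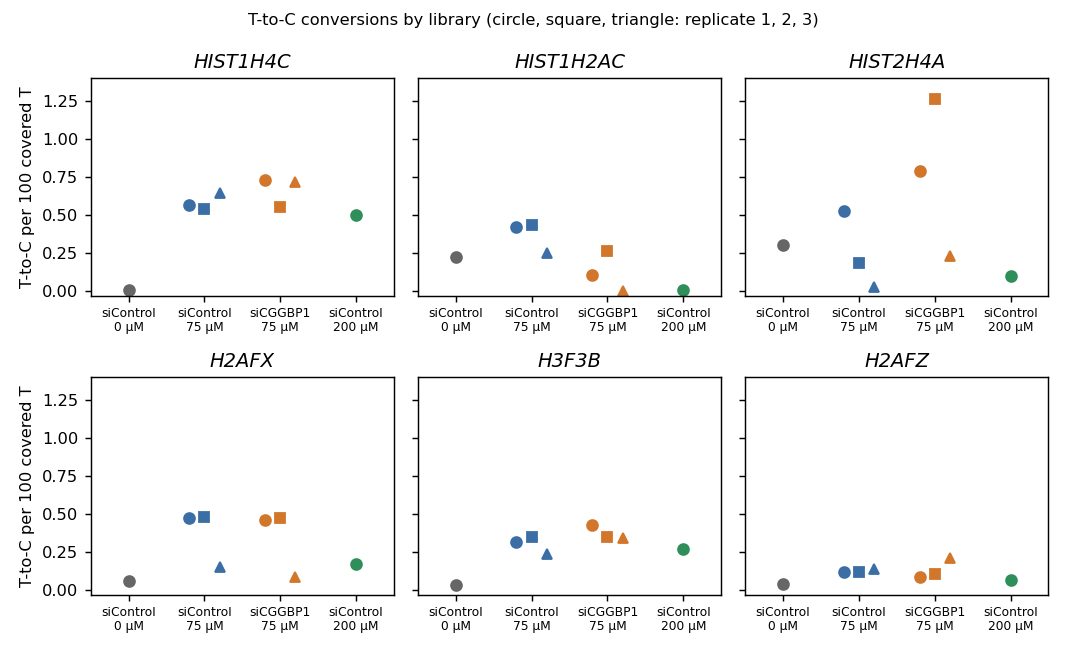
T-to-C conversions per 100 covered T of 6 histone genes in the 8 libraries; symbols mark replicates, and the libraries at 0 and 200 µM 4sU are single. HIST1H4C lies between 0.498 and 0.729 in all labelled libraries and at 0.0100 without 4sU, whereas HIST1H2AC and HIST2H4A have labelled libraries below the library without 4sU.

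The new-to-total ratio of HIST1H4C was 13.1%, 12.3% and 17.2% in siControl and 18.2%, 12.1% and 18.2% in siCGGBP1, and 19.9% with 200 µM 4sU. The 90% credible intervals were narrow, from 12.3% to 13.9% in siControl replicate 1. Means were 14.2% ± 2.65 and 16.1% ± 3.54 (SD, n = 3 each; two-sided exact permutation p = 0.6), so the ratio did not differ between groups beyond the spread. HIST1H4C ranked above 77.0% to 86.1% of all tested genes in the 6 libraries. The 12 other tested clustered genes together had a new share of reads of 8.09%, 3.15% and 5.62% in siControl and 7.0%, 3.39% and 1.20% in siCGGBP1, against 3.86% to 5.69% over all tested genes. The median ratio over the 13 tested clustered genes was 10.5%, 1.26% and 3.46% in siControl and 8.45%, 5.73% and 0% in siCGGBP1.

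Averaged over the 6 libraries, every tested variant gene had a lower ratio than HIST1H4C (15.2%). So did every other tested clustered gene except HIST2H2BE (23.8%). H3F3B was at 6.96%, 8.04% and 5.93% in siControl and 8.91%, 7.07% and 8.83% in siCGGBP1 (exact permutation p = 0.2). H2AFX was at 11.3%, 12.7% and 3.80% in siControl and 12.7%, 9.49% and 0% in siCGGBP1 (exact permutation p = 0.7), with the replicate 3 library lowest in both groups. H2AFZ was at 0.97% to 4.96% over the 6 libraries, H2AFV at 1.69% to 5.85%, H3F3A at 0% to 5.01% and H2AFY at 0% to 5.40%. On average over the 6 libraries H2AFX (8.32%) and H3F3B (7.62%) had the highest ratios among the tested variant genes, and the median over the 10 tested variant genes (3.23%, 4.79% and 3.88% in siControl, 3.45%, 3.1% and 0% in siCGGBP1) stayed near the median of all tested genes in replicates 1 and 2 (2.78% to 4.74%).

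The ratio separated the groups in 2 of the 23 members, both lower in siCGGBP1, against 7.07% of all tested genes (4.22% lower). HIST1H2AC was at 8.70%, 10.8% and 10.7% in siControl and 0.47%, 6.31% and 0% in siCGGBP1 (exact permutation p = 0.1, the smallest possible), and it had conversions without 4sU as given above. HIST2H2BE was at 17.9%, 17.9% and 73.8% in siControl and 13.7%, 16.9% and 2.66% in siCGGBP1 (exact permutation p = 0.1), on 25 to 79 conversions per library. Its siControl replicate 3 was far above all others, and without the replicate 3 libraries the groups were 17.9% and 17.9% against 13.7% and 16.9%.

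**Figure D5:**
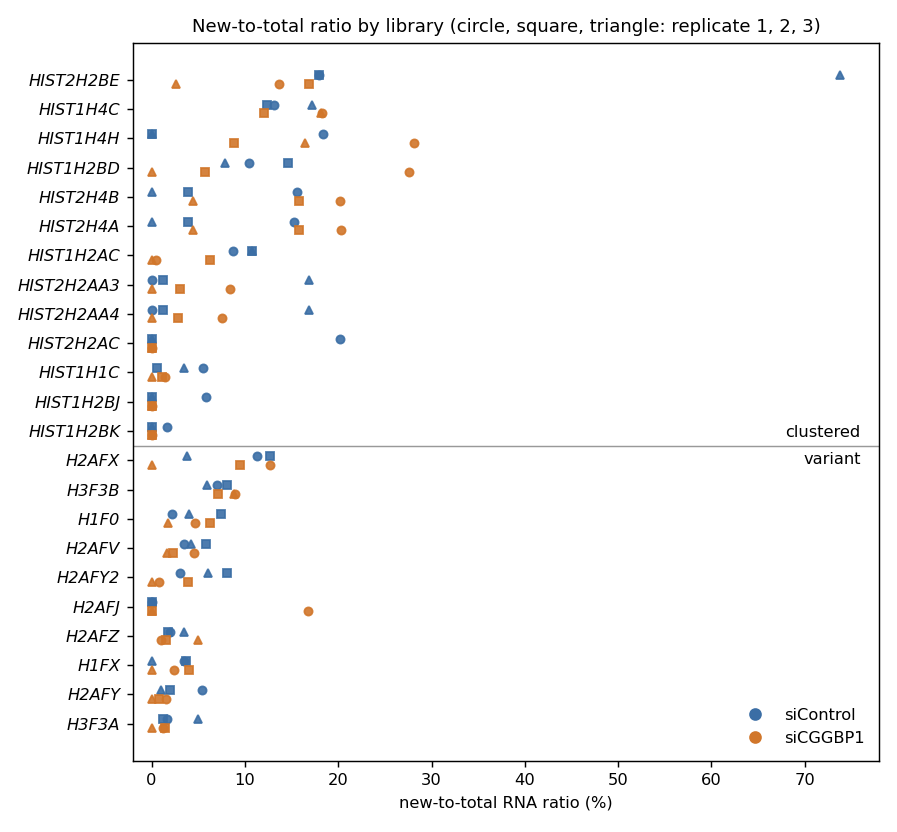
New-to-total RNA ratio in percent of the 23 tested histone genes, with siControl in blue and siCGGBP1 in orange; symbols mark replicates and the line separates clustered from variant genes. HIST1H4C lies at 12.1% to 18.2% in all 6 libraries, and many clustered genes have libraries at 0%.

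No histone gene was called in newly synthesized RNA (edgeR quasi-likelihood test; 0 of 23, against 5 of 10138 tested genes, 0.0493%). None had an unadjusted p under 0.05, where 3.15% of all tested genes did, and with DESeq2 none was called and 1, H2AFJ, had such a p. The coefficient of biological variation was 1.78 for new and 0.399 for total RNA, and standard errors of the members' log2 fold changes in new RNA ran from 0.28 to 4.09. In data simulated with this spread the edgeR test missed even large changes. The lack of calls therefore does not show that these genes were unchanged. Standard errors were smallest for H3F3B (0.28) and HIST1H4C (0.30). For HIST1H4C the normalized new reads were 1712, 1422 and 1482 in siControl, against 1383, 953.0 and 1166 in siCGGBP1. All siCGGBP1 libraries were lower, with a log2 fold change of -0.40 (SE 0.30, adjusted p = 1). H3F3B had 1391, 1632 and 1478 in siControl and 1588, 1216 and 1751 in siCGGBP1, an overlap that left the log2 fold change at 0.02 (SE 0.28, adjusted p = 1). H2AFX had 252.2, 382.7 and 83.3 in siControl and 140.3, 125.0 and 0 in siCGGBP1 (log2 fold change -1.44, SE 1.08, adjusted p = 1), where siControl replicate 3 lay below siCGGBP1 replicates 1 and 2. HIST1H2AC had 59.0, 67.0 and 60.2 in siControl and 1.15, 23.8 and 0 in siCGGBP1 (log2 fold change -2.88, SE 2.68, adjusted p = 1). HIST1H4C and HIST1H2AC were the 2 members whose groups did not overlap in new RNA, against 7.32% of all tested genes.

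Genes that act on histone mRNAs and histones were read from lists of known factors. Of the 17 factors of histone 3′ end processing, which bind the stem-loop and cut behind it, all were tested, 15 had a negative log2 fold change, against 49.9% of all tested genes, and the median was -0.41. None was called, 5 had an unadjusted p under 0.05 and were lower, against 8.32% of all tested genes. CPSF3, the endonuclease that cuts histone pre-mRNA, had 850.1, 799.9 and 1811 normalized reads in siControl and 461.2, 577.2 and 596.7 in siCGGBP1. All siCGGBP1 libraries were lower (log2 fold change -1.08, SE 0.33, edgeR adjusted p = 0.121), and the wide siControl spread came from replicate 3, without which the log2 fold change was -0.60. ZNF473, a zinc finger protein of the U7 complex, had the lowest p among those higher, at a log2 fold change of 0.76 (adjusted p = 0.697; 0.39 to 1.28 without 1 siCGGBP1 library).

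Of 10 factors of histone mRNA decay, none was called or had an unadjusted p under 0.05, and the median was -0.10. DCP2, a decapping enzyme, was at 0.57 (adjusted p = 0.347) and the exosome nuclease EXOSC10 at -0.76 (adjusted p = 0.318). The replicate 3 libraries weighed on both: DCP2 was at 0.34 without siCGGBP1 replicate 3, and EXOSC10 at -0.42 without siControl replicate 3 and -0.48 without siCGGBP1 replicate 3. Of 8 tested factors of histone gene transcription, out of 10, none was called and the median was -0.01. E2F1, a transcription factor of the G1/S transition, had 646.6, 606.6 and 428.7 normalized reads in siControl and 446.3, 267.8 and 171.8 in siCGGBP1 (log2 fold change -0.93, SE 0.39, edgeR adjusted p = 0.262). The siCGGBP1 replicate 1 library overlapped siControl. GON4L was at 0.40 (adjusted p = 0.725), and at 0.044 to 0.88 without 1 library.

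The 28 histone chaperones had a median of -0.09, none was called, and at an unadjusted p under 0.05 there were 5 lower and 1 higher, against 8.32% and 8.11% of all tested genes. The higher gene was CABIN1, a subunit of the HIRA complex that deposits H3.3. It had 655.8, 602.8 and 447.8 normalized reads in siControl and 1035, 1287 and 1121 in siCGGBP1. The groups did not overlap, at a log2 fold change of 1.01 (SE 0.26, edgeR adjusted p = 0.0750). MCM2, a helicase subunit that also holds H3 and H4 at the replication fork, was at -0.85 (SE 0.21, adjusted p = 0.0615), with all siCGGBP1 libraries lower.

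The 41 genes of DNA replication, which are expressed in the same phase of the cell cycle as the clustered histones, had a median log2 fold change of -0.48, and 39 were negative. MCM5, another helicase subunit, was the single called gene (1670, 1876 and 1202 normalized reads in siControl, 634.9, 752.7 and 345.2 in siCGGBP1), and it fell by 1.46 on the log2 scale (edgeR adjusted p = 0.0346). This call was lost without any 1 of the siControl libraries and without siCGGBP1 replicate 1 or 2 (adjusted p 0.0528 to 0.129). At an unadjusted p under 0.05, 15 were lower and none higher, against 8.32% and 8.11% of all tested genes; the gene nearest to the test among those higher was RFC2 at 0.13. Their summed CPM were 6555, 7003 and 6501 in siControl and 4998, 4436 and 4653 in siCGGBP1, without overlap, and 6830 and 6078 at 0 and 200 µM 4sU. The list was thus lower in siCGGBP1, as were HIST1H4C, H2AFZ and H2AFX. The 13 tested clustered genes had a median of 0.02 (9 positive and 4 negative), without a stable sign. Summed CPM of all clustered genes were 1837, 1644 and 1282 in siControl and 1269, 1457 and 1096 in siCGGBP1. These sums were lower on average in siCGGBP1 but overlapped. H2AFV and H2AFY were higher. At 0 and 200 µM 4sU the list lay near siControl and HIST1H4C did not. The part of cell cycle position in the histone values was not tested.

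Promoters were searched for motifs known from histone genes. Each promoter was 300 bases around the start of transcription (RefSeq, GRCh38.p14), searched on both strands. A gene counted where any of its promoters held the motif. CCAAT was found in 34 of 42 clustered genes (81.0%) and 9 of 11 variant genes, against 39.7% of all genes with a promoter. TATAAA was found in 33 of 42 (78.6%) and 4 of 11, against 14%. Since the protein lowered by the siRNA binds CGG repeats, CGGCGGCGG was searched too. It was found in none of the 42 clustered genes and in 2 of the 11 variant genes, against 7.46% of all genes with a promoter. The 2 were H2AFV, with 1 promoter, and H3F3A, with 4. Of these, H2AFV had a log2 fold change of 0.42 and H3F3A of 0.03 in total RNA, neither past the test, and the H2AFX promoter held CCAAT and TATAAA but not CGGCGGCGG. HIST1H4C, HIST1H4A, HIST1H2AH, the second HIST1H3D gene, H1F0 and H3F3C were not matched to a single gene with a promoter and were not searched.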

How the data were processed

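SLAM-Seq libraries were prepared from poly(A)-primed 3′ ends (QuantSeq), without molecular identifiers. According to the Methods, the authors removed ribosomal reads with Bowtie2 2.3.0, mapped the rest with STAR 2.5.3a to the human genome (GRCh38) and counted with GRAND-SLAM. The deposited expected counts (reads, conversions, covered T, reads named min2) are not normalized, and 11644 genes (63.3%) hold fractional values. The new-to-total ratio was deposited by the authors as a fraction, with its posterior mean and limits. The deposited score columns (posterior shape parameters) were not used, nor were 8 double-hit columns, which hold 0 throughout. There were 0 spike-in rows.

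Tested were the 10138 genes that reached 100 reads in 3 or more of the 6 libraries. Counts were rounded and fitted with edgeR 4.0.16 (quasi-likelihood test, TMM) in R 4.3.3, and calls needed an adjusted p below 0.05 and a log2 fold change beyond 1 in either direction. Normalized reads are counts scaled to the mean effective library size. New RNA was reads multiplied by the ratio, with the scaling of total RNA. SE is the absolute log2 fold change over the root of F. Exact permutation tests were two-sided (scipy 1.17.1). The fits were tested on simulated data: at the fitted spread edgeR recovered most changed genes in total RNA and none in new RNA, and DESeq2 made a larger share of false calls in both.

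Members and lists were chosen with earlier results of these data known. Named were every tested member, CGGBP1, and from each list the called genes and the lowest p in each direction. Identifiers of 56 of 59 members were found in GENCODE 44 and were matched by identifier; promoters were matched by symbol. Intervals of reads without molecular identifiers cover counting error only. Alternatives were DESeq2 1.42.0, other filters, thresholds and normalization, the posterior mean ratio, conversion counts, leaving out each library, the replicate number as a block, and summed near-identical copies, which was added after seeing the data.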

Additional observations from a re-analysis of the deposited data

Results flagged for a closer look

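The siControl library with 200 µM 4sU, which entered no comparison, held labelled HIST1H4C RNA above the library without 4sU. It had 0.498 T-to-C conversions per 100 covered T (800 conversions), against 0.0100 without 4sU, and 126 reads in the column named min2, against 0 (taken here as reads with at least 2 conversions, which no source used here states). The rate at 200 µM was below the 0.542 to 0.729 of the 6 libraries at 75 µM, while the new-to-total ratio, at 19.9%, was above all 6. The 0 and 200 µM doses are single libraries, so this order has no replicate check.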

How the results depend on the processing

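Of the 23 histone genes, 16 kept the sign of their total RNA fold change in every alternative run and 7 did not, all of the latter within 0.21 of 0 in the fit reported. Signs turned for HIST2H4A without a filter and with a minimum of 10 reads (-0.0064 and -0.0022), for HIST1H4H with DESeq2, DESeq2 size factors, no filter and the minimum of 10 (-0.0067, -0.0068, -0.018 and -0.013) and for H3F3B in new RNA without a filter and with the minimum of 10 (-0.00456 and -0.000592). Leaving out 1 library at a time gave HIST2H4A -0.12 to 0.18, HIST2H4B -0.11 to 0.18, HIST1H4H -0.27 to 0.27, HIST1H2BK -0.45 to 0.53, HIST1H1C -0.20 to 0.22, H3F3A -0.11 to 0.17, H1FX -0.42 to 0.13 and H3F3B in new RNA -0.093 to 0.14. The count of all genes called in total RNA was 143, 371 with DESeq2, 324 without a filter, 291 at an adjusted p under 0.1 and 48 to 148 without 1 library, and in new RNA 5, 30 with DESeq2, 18 on conversion counts and 3 to 6 without 1 library. The count of histone genes called in total RNA was 1 and went to 0 without any 1 library (0 to 0). The replicate block left 0 histone genes called (H2AFX at -0.99, past the adjusted p but under the fold threshold), 161 genes in total RNA and 2 in new RNA; same-numbered libraries had deviations correlated at 0.105, 0.172 and 0.0837, each the highest for its library, which is a hint from the data only, as the labels name no shared batch. The variant median of -0.09 was -0.22 without a filter and -0.21 to 0.070 without 1 library. The median clustered ratio in siCGGBP1 was 4.73% in the main setting and 0.148% with the minimum of 10 reads. In siControl it was 5.06% and 2.74%. The causes were not tested. CPSF3 was called with DESeq2 and without a filter (-1.10, adjusted p = 0.0196), and CABIN1 with DESeq2 and at an adjusted p under 0.1. The read filter left 36 members untested, among them every H3 gene of the clusters.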
